A study of Mus musculus with 48 samples.

Results

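The autophagy genes described here are 37 genes that encode the core machinery of autophagy, its cargo receptors and the transcription factors TFEB and TFE3. They were picked by gene name from tables of 48795 genes, each name was found 1 time, and all 37 were among the 20010 genes with enough reads to be tested. Their RNA was measured by sequencing of the cerebral cortex in 48 mice aged 6 months, 1 library per mouse, all listed on a C57BL/6 background. The mice were 8 Q140 x Msh3-/-, 8 Q140 x Msh3+/-, 8 Q140, 8 Msh3-/-, 9 Msh3+/- and 7 wild-type (WT) animals. In the Q140 allele an expanded CAG repeat has been placed into Htt, the mouse gene of huntingtin, and every Q140 mouse carried it in heterozygous form. Msh3 encodes a DNA mismatch repair protein, and the labels give its altered alleles as +/- or -/- without saying how they were made. There were 3 females in WT, 5 in Msh3+/- and 4 in each other group, and 4 males in every group.

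Autophagy encloses a piece of cytoplasm in a double membrane, the autophagosome, and delivers it to the lysosome for breakdown. A kinase complex starts the membrane, a lipid kinase marks it, 2 ubiquitin-like conjugation systems attach LC3 and GABARAP proteins to it, and receptors link those proteins to cargo such as protein aggregates, damaged mitochondria or bacteria. In neurons a basal flux of this pathway clears misfolded proteins, mutant huntingtin among them, and mice that lack Atg5 or Atg7 in neurons accumulate inclusions and lose neurons. Much of the control of the pathway acts on proteins, by phosphorylation, lipid conjugation and turnover, which RNA levels do not show.

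The libraries held 35.9 M to 64.5 M assigned reads, with a mean of 46.5 M, and the members had from 131 reads (Tfeb in its lowest library) to 31677 reads (Gabarapl1 in its highest). Msh3 RNA was higher, not lower, in every mouse with an altered allele: 99.1 to 125 CPM (reads scaled to a common library size) in mice labelled -/-, 61.2 to 77.4 in those labelled +/- and 21.8 to 25.9 in the others, so the labels are used here as names of genotypes and not as loss of RNA. Markers of cortical excitatory neurons, interneurons, astrocytes, oligodendrocytes, microglia and endothelium were present in all 48 libraries. Ttr, a choroid plexus gene, stood at 1093 and 106 CPM in 2 Msh3-/- females, at 353 CPM in 1 WT male, and at 9.17 CPM or less in the other libraries. On the second principal component, which held 6.69% of the variance, 3 males (Q140, Q140 x Msh3-/- and Msh3+/-) stood apart, at 32.4 to 36.5 against 15.7 or less in the other mice. In whole tissue, fewer cells of a type and less RNA per cell cannot be told apart.

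All roles of the pathway were represented at appreciable levels. Per length, in the deposited FPKM (fragments scaled for gene length and library size), 33 of 37 members lay above the median tested gene at 3.18 FPKM, and the median member stood at 10.5 FPKM. The ATG8 family, the small ubiquitin-like proteins that sit on the autophagosome membrane, held the most abundant member. Gabarapl1 averaged 241 ± 8.79 FPKM (SD, n = 48), and its lowest mouse, at 221 FPKM, lay far above the highest mouse of any other member. Next in the family came Map1lc3a at 63.0 ± 3.5, Gabarap at 38.7 ± 1.43, Map1lc3b at 17.8 ± 0.887 and Gabarapl2 at 9.93 ± 0.533 FPKM, and no ranges overlapped among these 5 genes.

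The receptors were the other abundant group. Sqstm1, which binds ubiquitin on cargo with one end and LC3 with the other, was second of all members at 98.5 ± 3.87 FPKM, with 91.1 FPKM in its lowest and 107 FPKM in its highest mouse. Nbr1, a related receptor, had 26.9 ± 0.715 FPKM, and Wdfy3, a large scaffold that tethers ubiquitinated aggregates to the membrane, had 23.3 ± 1.0 FPKM. Optn, the receptor optineurin, which acts on mitochondria and aggregates and is mutated in forms of amyotrophic lateral sclerosis, was much lower at 5.04 ± 0.395 FPKM.

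Among the genes that start the membrane, Atg13, the adaptor of the ULK kinases, had 22.5 ± 0.834 FPKM. Ulk2 had 22.1 ± 0.780 FPKM and Ulk1 17.9 ± 0.852 FPKM, and the lowest mouse of Ulk2 (20.2 FPKM) lay above the highest of Ulk1 (19.5 FPKM). Atg101, which stabilises Atg13, had 11.7 ± 0.971 and Rb1cc1, the scaffold of the complex also named FIP200, had 9.93 ± 0.467 FPKM. The lipid kinase complex, which makes the lipid PI3P, was led by Ambra1 at 15.1 ± 0.523 and Becn1 at 13.7 ± 0.368 FPKM, both regulators of the kinase. Its catalytic subunit Pik3c3 had 10.5 ± 0.401 FPKM, and its regulatory subunit Pik3r4 had 5.23 ± 0.25 FPKM. The alternative subunits Atg14, which directs the complex to autophagosomes, and Uvrag, which directs it to endosomes, had 5.21 ± 0.201 and 4.75 ± 0.296 FPKM, with overlapping ranges.

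Downstream of PI3P, Atg9a, a membrane protein that moves lipids between leaflets, had 15.1 ± 0.601 FPKM. Wipi2, the PI3P reader that recruits ATG16L1, had 10.7 ± 0.441 FPKM and its relative Wipi1 had 4.71 ± 0.273. The lipid channels Atg2a and Atg2b had 9.08 ± 0.491 and 8.73 ± 0.332 FPKM. In the ATG12 system, Atg12 itself had 21.7 ± 0.970 FPKM, while its partners Atg16l1 and Atg5 had 7.37 ± 0.302 and 6.91 ± 0.410. Atg7, the E1-like enzyme that serves both conjugation systems, was among the 4 least abundant members at 3.13 ± 0.150 FPKM, and Atg16l2, a relative of Atg16l1, had 2.71 ± 0.254. Of the ATG8 enzymes, the protease Atg4c had 15.8 ± 0.982 and the E2-like Atg3 had 13 ± 0.571 FPKM. The other proteases were lower, with Atg4d at 7.37 ± 0.544, Atg4b at 6.54 ± 0.194 and Atg4a, on chromosome X, at 1.90 ± 0.252 FPKM. Atg4d shares 4316 bases with Kri1 on the other strand, at mean counts of 873 and 1698 reads. Whether reads were counted by strand is not given, so reads of Atg4d and Kri1 may not have been told apart.

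**Figure D1:**
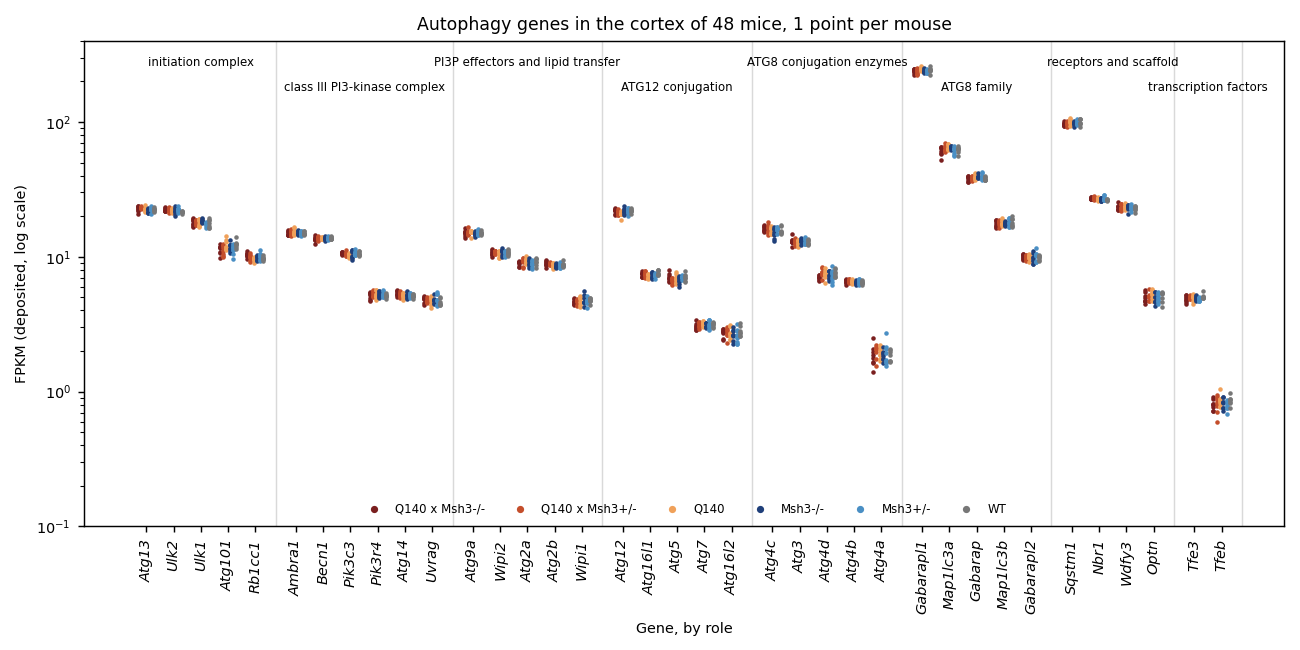
Deposited FPKM of the 37 autophagy genes in each of 48 mice on a log scale, 1 point per mouse, coloured by genotype and grouped by role. Gabarapl1 (241 FPKM on average) and Sqstm1 (98.5 FPKM) stand above the rest, Tfeb (0.821 FPKM) below, and the 6 genotype colours overlap within genes.

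The 2 transcription factors differed in level. Tfe3, on chromosome X, had 4.95 ± 0.208 FPKM and Tfeb 0.821 ± 0.0806 FPKM, the lowest of the 37, with no overlap between their ranges (4.45 to 5.54 against 0.592 to 1.04 FPKM). Both proteins bind the letters CACGTG in promoters of autophagy and lysosome genes. In RefSeq windows from 250 bases before to 50 bases after a gene's start (build GRCm38.p6), available for 30 members, CACGTG was present in 4 members, Atg14, Atg3, Atg5 and Atg7, or 4 of 36 windows, beside 7.15% of all 32851 windows. This palindrome reads alike on both strands. The longer form TCACGTGA, which contains it, was in 1 member, Atg3, beside 0.974% of all windows. The stretches of Atg3 and Atg7 are shown because these are the E2-like and E1-like enzymes of the same lipid conjugation, with CACGTG in capitals.
Atg3 (chr16:45158719-45158778, plus strand): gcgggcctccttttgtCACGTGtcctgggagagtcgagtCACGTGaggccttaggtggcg
Atg7 (chr6:114670936-114670995, plus strand): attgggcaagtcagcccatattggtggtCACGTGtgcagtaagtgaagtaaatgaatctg
The 2 matches in Atg3 begin 94 and 71 bases before the start, and the match in Atg7 begins 132 bases before a start that lies inside the Ensembl gene model. The matches are letters in a window, with no binding data behind them.

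Levels of these genes varied little between mice. After genotype and sex were taken out, the SD of log2 CPM over mice was 0.066 for the median member, between 0.035 (Nbr1) and 0.187 (Atg4a), where the median of all tested genes was 0.142. The tested genes were not matched to the members for level, and 33 of 37 members lay above the median tested gene in FPKM. The next steadiest members were Atg4b at 0.042, Atg16l1 at 0.043 and Becn1 at 0.043. The most variable after Atg4a were Tfeb at 0.143 and Atg16l2 at 0.12, which are also among the lowest in level. Over the 6 genotype groups, the highest group mean exceeded the lowest by 1.01 times for Becn1, the least, and by 1.11 times for Atg101, the most.

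No autophagy gene passed the test in any genotype comparison. Except in ranges over other settings, which also hold DESeq2 and limma values, p-values on genotype and sex come from edgeR's quasi-likelihood test. Called means an adjusted p under 0.05 (Benjamini-Hochberg, over 20010 genes). Asked whether any of the 6 genotypes differed, 0 of 37 members were called, beside 21 tested genes (0.105%). At an unadjusted p under 0.05 there were 3 members (Atg16l1, Rb1cc1 and Atg12), or 8.11%, beside 7.54% of all tested genes, and the smallest adjusted p was 0.627 for Atg16l1. In each of the 11 genotype comparisons below, DESeq2 and limma also called 0 members.

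The Htt expansion was first examined on unaltered Msh3, to see what it alone does to the pathway. In Q140 against WT, 0 of 37 members were called, beside 2 tested genes (0.01%), with 2 members (5.41%) and 5.48% of tested genes at an unadjusted p under 0.05. Atg16l1, which carries the ATG12-ATG5 conjugate to the membrane, had the smallest p. It had 66.6 CPM in the lowest, 68.8 in the median and 71.3 in the highest Q140 mouse, against 69.9, 73.7 and 76.8 CPM in WT. The groups overlapped, although 4 of 8 Q140 mice lay below every WT mouse and 6 of 7 WT mice above every Q140 mouse. The log2 fold change of Atg16l1 was -0.09 ± 0.02 (standard error, as for all log2 changes below, adjusted p = 0.575). Its partner Atg12 had 46.2, 51.6 and 55.1 CPM (lowest, median and highest) in Q140, against 51.3, 55.4 and 57.7 in WT. Here too the groups overlapped (log2 fold change -0.10 ± 0.03, adjusted p = 0.822). Ulk2 had 128, 132 and 137 CPM in Q140, against 124, 128 and 133 in WT (log2 fold change 0.05 ± 0.03, adjusted p = 0.930). Over all 37 members the median log2 change was 0.01, beside 0.00 over all tested genes, and the 95% intervals of 29 members lay within 1.1-fold in both directions. All but Atg4a, a low and variable gene, lay within 1.2-fold (36 of 37).

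With 1 altered Msh3 allele the same Htt comparison again gave 0 called members. In Q140 x Msh3+/- against Msh3+/-, 3 tested genes (0.015%) were called, with 1 member (2.7%) and 6.2% of tested genes at an unadjusted p under 0.05. This was Atg5, the acceptor of ATG12, with 14.5, 15.9 and 16.3 CPM (lowest, median and highest) in Q140 x Msh3+/- mice, against 16.2, 16.7 and 17.3 CPM in Msh3+/- mice. The ranges touched in a narrow band only, with 7 of 8 Q140 x Msh3+/- mice below every Msh3+/- mouse, at a log2 fold change of -0.09 ± 0.04 (adjusted p = 0.780). Sqstm1 had 310, 324 and 342 CPM in Q140 x Msh3+/-, against 323, 329 and 357 in Msh3+/- (log2 fold change -0.05 ± 0.03, adjusted p = 0.787). Gabarap had 66.7, 70.9 and 73.3 CPM, against 68.6, 72.1 and 78.8 in Msh3+/- (log2 fold change -0.04 ± 0.03, adjusted p = 0.811). The ranges of both genes overlapped, with 4 of 8 Q140 x Msh3+/- mice below every Msh3+/- mouse for Sqstm1 and 1 of 8 for Gabarap.

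With both Msh3 alleles altered, Q140 x Msh3-/- against Msh3-/- gave 0 called members and 0 called genes in all (0%), with 5 members (13.5%) and 6.8% of tested genes at an unadjusted p under 0.05. Atg4c, a protease that trims LC3 and GABARAP proteins, had 50.9, 54.3 and 57.7 CPM (lowest, median and highest) in Q140 x Msh3-/-, against 44.3, 50.2 and 55.0 in Msh3-/- (log2 fold change 0.11 ± 0.04, adjusted p = 0.685). Rb1cc1 had 140, 151 and 161 CPM, against 137, 144 and 151 in Msh3-/- (log2 fold change 0.08 ± 0.03, adjusted p = 0.685). Atg2b had 84.8, 91.1 and 96.1 CPM, against 82.6, 87.1 and 91.4 in Msh3-/- (log2 fold change 0.06 ± 0.03, adjusted p = 0.709). In all 3 genes most Q140 x Msh3-/- mice lay above the Msh3-/- median (8, 7 and 7 of 8 in the order given), and the ranges overlapped.

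The altered Msh3 alleles were then examined without the Htt expansion, against the same WT mice as above, so that these comparisons and Q140 against WT are not independent. In Msh3+/- against WT, 0 members were called, beside 5 tested genes (0.025%), with 5 members (13.5%) and 9.5% of tested genes at an unadjusted p under 0.05. Ulk2, a kinase that starts autophagy, had 128, 134 and 144 CPM (lowest, median and highest) in Msh3+/-, against 124, 128 and 133 in WT (log2 fold change 0.07 ± 0.03, adjusted p = 0.435). The highest of these values came from 1 male that stood apart from its group. Atg16l1 had 66.9, 70.6 and 72.3 CPM in Msh3+/-, against the WT values given above (log2 fold change -0.06 ± 0.02, adjusted p = 0.456). Nbr1 had 177, 186 and 197 CPM in Msh3+/-, against 178, 182 and 185 in WT (log2 fold change 0.04 ± 0.02, adjusted p = 0.510). Its Msh3+/- range enclosed the WT range.

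In Msh3-/- against WT, 0 members were called, beside 7 tested genes (0.035%), with 1 member (2.7%) and 5.73% of tested genes at an unadjusted p under 0.05. That member was Atg16l1, with 65.5, 70.9 and 73.7 CPM in Msh3-/- (log2 fold change -0.06 ± 0.02, adjusted p = 0.848). Atg5 had 14.0, 15.9 and 17.1 CPM in Msh3-/-, against 15.3, 16.4 and 18.1 in WT (log2 fold change -0.08 ± 0.04, adjusted p = 0.885). Gabarap had 70.0, 72.6 and 76.4 CPM in Msh3-/-, against 67.5, 68.8 and 73.4 in WT (log2 fold change 0.05 ± 0.03, adjusted p = 0.904). WT thus had the highest mean of the 6 groups for Atg16l1, at 73.6 ± 2.58 CPM (SD, n = 7), with the other means between 68.8 and 71.6 CPM.

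Altered Msh3 was next examined in mice that carried the Htt expansion, both times against the same 8 Q140 mice. In Q140 x Msh3+/- against Q140, 0 members were called, beside 4 tested genes (0.02%), with 3 members (8.11%) and 5.14% of tested genes at an unadjusted p under 0.05. Gabarapl1 had 438, 473 and 517 CPM (lowest, median and highest) in Q140 x Msh3+/-, against 476, 499 and 525 in Q140 (log2 fold change -0.08 ± 0.03, adjusted p = 0.960). Atg16l1 had 68.7, 71.7 and 74.8 CPM, against 66.6, 68.8 and 71.3 in Q140 (log2 fold change 0.06 ± 0.02, adjusted p = 0.960). Atg101 had 12.2, 13.9 and 15.6 CPM, against 13.9, 14.6 and 17.3 in Q140 (log2 fold change -0.12 ± 0.05, adjusted p = 0.960). All 3 pairs of ranges overlapped.

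Q140 x Msh3-/- against Q140 held the member with the smallest adjusted p of the 11 genotype comparisons. Rb1cc1 had 140, 151 and 161 CPM (lowest, median and highest) in Q140 x Msh3-/-, against 131, 142 and 147 in Q140. Of the Q140 x Msh3-/- mice, 7 of 8 lay above every Q140 mouse, and the log2 fold change was 0.11 ± 0.03, or 1.08-fold (95% interval 1.03 to 1.13), with an adjusted p of 0.330. Genotypes were spread unevenly over the columns of the sample plate, the batch given by the labels' well addresses. Columns 3 and 4 held 3 and 4 of the 8 Q140 x Msh3-/- mice, against 1 and 0 of the 8 Q140 mice. Over 16 other settings of the fit, plate column as a term among them, the log2 change of Rb1cc1 ran from 0.10 to 0.12. Atg12 had 51.5, 55.4 and 56.9 CPM, against 46.2, 51.6 and 55.1 in Q140 (log2 fold change 0.09 ± 0.03, adjusted p = 0.376). Atg14 had 17.5, 18.4 and 19.5 CPM, against 16.7, 17.6 and 18.4 in Q140 (log2 fold change 0.07 ± 0.03, adjusted p = 0.481). Altogether 0 members were called, beside 9 tested genes (0.045%), with 6 members (16.2%) and 9.07% of tested genes at an unadjusted p under 0.05. For Rb1cc1 and Atg12 the Q140 group had the lowest mean of the 6, at 141 ± 4.96 and 51.4 ± 2.53 CPM (SD, n = 8).

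**Figure D2:**
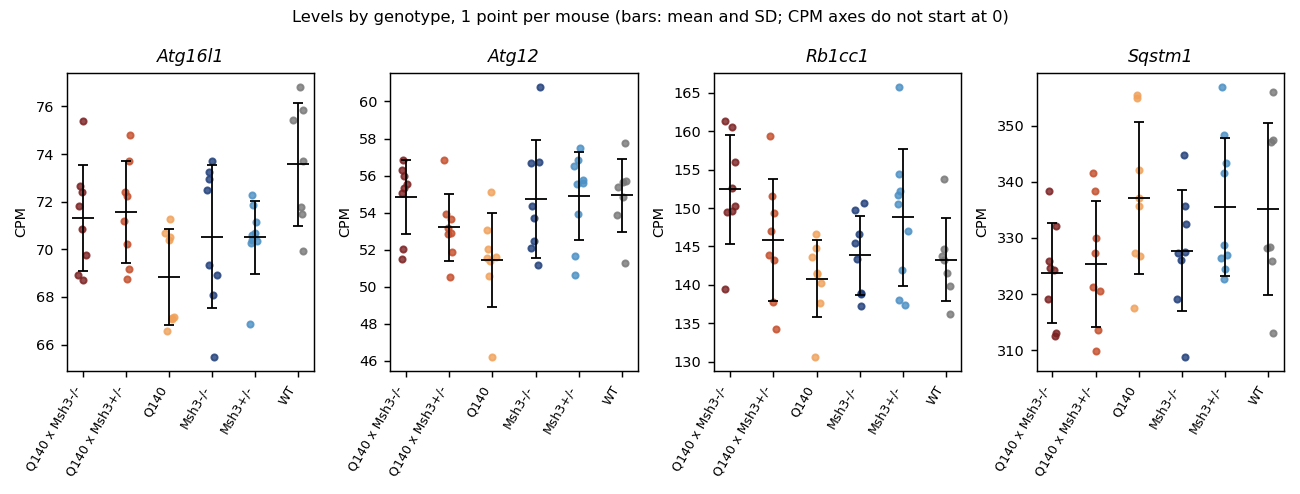
CPM of Atg16l1, Atg12, Rb1cc1 and Sqstm1 in each mouse by genotype, with the mean and SD of each group (7 to 9 mice) as bars; the axes do not start at 0. WT has the highest Atg16l1 mean (73.6 CPM) and Q140 the lowest Atg12 and Rb1cc1 means (51.4 and 141 CPM), with overlap between all groups compared here.

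Whether the Htt effect differed between Msh3 genotypes was tested directly. For Q140 x Msh3+/- the difference in Q140 effect from that on unaltered Msh3 was called for 0 members and 0 tested genes (0%), with 2 members at an unadjusted p under 0.05 (5.41%, beside 6.43% of tested genes). For Q140 x Msh3-/- it was again 0 members and 0 tested genes (0%), with 5 members at an unadjusted p under 0.05 (13.5%, beside 5.35%). Atg16l1 had the smallest member p in both, with a Q140 effect of 0.02 ± 0.02 in Msh3+/- and 0.02 ± 0.02 in Msh3-/- mice, against -0.09 ± 0.02 on unaltered Msh3. Its difference was 0.11 ± 0.03 with Msh3+/- (adjusted p = 0.709) and 0.11 ± 0.03 with Msh3-/- (adjusted p = 0.922), in both cases against the same Q140 and WT mice. The others named were Gabarap at -0.08 ± 0.04 (adjusted p = 0.771) and Tfe3 at 0.07 ± 0.04 (adjusted p = 0.789) with Msh3+/-. With Msh3-/- they were Map1lc3a at -0.14 ± 0.06 and Atg2b at 0.09 ± 0.04, each at an adjusted p of 0.922.

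Averaged over Msh3 genotypes, which gives the Htt comparison its best precision, 24 Q140 carriers against 24 non-carriers again gave 0 called members, beside 7 tested genes (0.035%), with 2 members (5.41%) and 5.63% of tested genes at an unadjusted p under 0.05. Atg12 had 46.2, 53.0 and 56.9 CPM (lowest, median and highest) in carriers, against 50.6, 55.5 and 60.8 in non-carriers (log2 fold change -0.05 ± 0.02, adjusted p = 0.769). Atg13 had 91.9, 99.4 and 105 CPM, against 91.9, 97.7 and 103 in non-carriers (log2 fold change 0.03 ± 0.01, adjusted p = 0.864). Optn had 16.9, 19.1 and 21.4 CPM, against 16.0, 18.8 and 20.6 in non-carriers (log2 fold change 0.04 ± 0.03, adjusted p = 0.918). The ranges overlapped for all 3 genes, with 3 of 24 carriers below every non-carrier for Atg12 and 3 and 4 carriers above every non-carrier for Atg13 and Optn. For 36 of 37 members the 95% interval lay within 1.1-fold in both directions, and the exception, Atg4a, reached 1.11-fold. The 3 libraries with high Ttr are all non-carriers, and the 4 tested choroid plexus genes had a median log2 change of -1.32 here with 0 called (edgeR); without those 3 libraries the count of called members was again 0.

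For the altered Msh3 alleles, 16 Msh3-/- mice with and without Q140 against 15 Q140 and WT mice gave 0 called members, beside 17 tested genes (0.085%), with 4 members (10.8%) and 9.27% of tested genes at an unadjusted p under 0.05. Rb1cc1 had 137, 150 and 161 CPM (lowest, median and highest) in the Msh3-/- mice, against 131, 142 and 154 in mice with unaltered Msh3 (log2 fold change 0.06 ± 0.02, adjusted p = 0.443). Sqstm1 had 309, 326 and 345 CPM, against 313, 336 and 356 with unaltered Msh3 (log2 fold change -0.04 ± 0.02, adjusted p = 0.475). Atg14 had 17.0, 18.1 and 19.5 CPM, against 16.7, 17.6 and 18.5 (log2 fold change 0.05 ± 0.02, adjusted p = 0.493). The 95% intervals of 34 of 37 members lay within 1.1-fold, and all 37 within 1.2-fold.

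**Figure D3:**
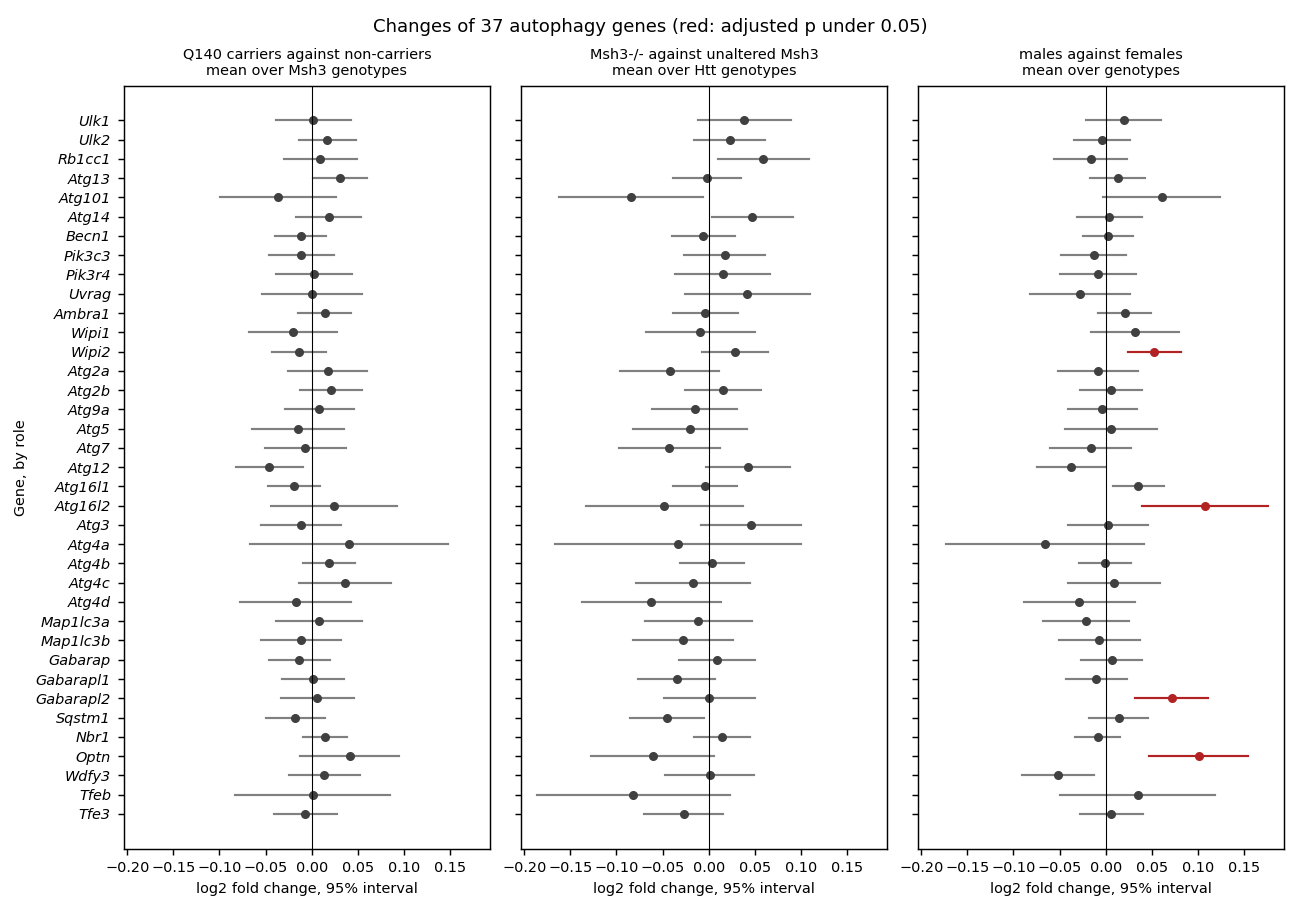
Log2 fold changes of the 37 members with 95% intervals, by role from top to bottom, for Q140 carriers against non-carriers, Msh3-/- against unaltered Msh3, and males against females. Red marks the 4 members called (Wipi2, Atg16l2, Gabarapl2 and Optn, all in males against females); in the other panels no member was called, and Atg4a and Tfeb have wide intervals.

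The genes around the core machinery gave 0 calls in the 11 genotype comparisons as well, beside 0% to 0.085% of all tested genes. A count of 0 is near that share. They were 19 further genes of autophagosome formation and fusion, 15 further cargo receptors, 27 genes of nutrient signalling through mTOR, AMPK and the Rag GTPases, and 32 lysosomal genes, all of them tested. Atg10, the E2-like enzyme of the ATG12 system, and Wdr41, a partner of C9orf72, lie on chromosome 13 at 1.28 Mb and 2.76 Mb from Msh3 on either side. In Q140 x Msh3-/- against Q140, Atg10 had a log2 fold change of 0.10 ± 0.07 (adjusted p = 0.722) and Wdr41 one of -0.00 ± 0.03 (adjusted p = 0.991). Averaged over Htt genotypes, Msh3-/- against unaltered Msh3 gave 0.06 ± 0.05 for Atg10 (adjusted p = 0.782) and -0.00 ± 0.02 for Wdr41 (adjusted p = 0.988).

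Sex was the factor with called autophagy genes. In males against females, 4 of 37 members were called, all higher in males, beside 1112 of 20010 tested genes (5.56%), of which 546 (2.73%) were higher and 566 (2.83%) lower in males. At an unadjusted p under 0.05 there were 7 members (18.9%), beside 20.7% of tested genes. The called members came from 4 roles and the changes were small. Optn, the receptor, had 16.9 CPM in the lowest, 19.9 in the median and 21.4 in the highest of 24 males, against 16.0, 18.1 and 20.5 CPM in 24 females. Of the males, 20 of 24 lay above the female median, and Optn rose in males by 0.10 ± 0.03 (log2, 1.07-fold, 95% interval 1.03 to 1.11, adjusted p = 0.0169).

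Wipi2, the PI3P reader, had 106, 116 and 121 CPM (lowest, median and highest) in males, against 104, 111 and 117 in females. It rose in males by 0.05 ± 0.01 (1.04-fold, interval 1.02 to 1.06, adjusted p = 0.0207), with 22 of 24 males above the female median. Gabarapl2, an ATG8 protein also known for a role in Golgi traffic, had 22.4, 23.6 and 26.9 CPM in males, against 20.7, 22.3 and 24.3 in females. All 24 males lay above the female median and 12 of 24 females below every male, and the log2 fold change was 0.07 ± 0.02 (1.05-fold, interval 1.02 to 1.08, adjusted p = 0.0218). Atg16l2 had 19.2, 23.8 and 27.1 CPM in males, against 19.0, 22.0 and 25.5 in females, and passed narrowly at 0.11 ± 0.03 (1.08-fold, interval 1.03 to 1.13, adjusted p = 0.0489). Male and female ranges overlapped for all 4 genes. Atg16l2 shares 21372 bases with Fchsd2 on the other strand, and whether reads were counted by strand is not given in the sources used here, so reads of the 2 genes may not have been told apart.

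Each of the 4 genes had a higher male mean in 6 of 6 genotypes. Within genotypes the male minus female difference ran from 0.01 to 0.17 (log2) for Optn, 0.02 to 0.08 for Wipi2, 0.00 to 0.16 for Gabarapl2 and 0.04 to 0.20 for Atg16l2. For Gabarapl2 it was 0.00 to 0.05 in the Q140 genotypes and 0.08 to 0.16 in the others. For Optn it was 0.01 to 0.11 and 0.13 to 0.17. For Wipi2 and Atg16l2 these ranges overlapped. Whether the sex difference depends on genotype was not tested. Within the 6 columns of the sample plate, the batch given by the labels' well addresses, it ran from 0.04 to 0.09 for Gabarapl2 and from 0.07 to 0.20 for Atg16l2, positive in 6 of 6. Optn was positive in 5 of 6 columns (-0.02 to 0.18) and Wipi2 in 5 of 6 (-0.02 to 0.11). Wipi2 was lower in males in column 6, which held 6 males and 2 females. With plate column as a term, 2 members were called (Gabarapl2 and Optn), without the 3 libraries with high Ttr 1 (Optn), without the 3 males apart on the second component 3 (Optn, Wipi2 and Gabarapl2), and with no filter on low counts 1 (Optn).

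**Figure D4:**
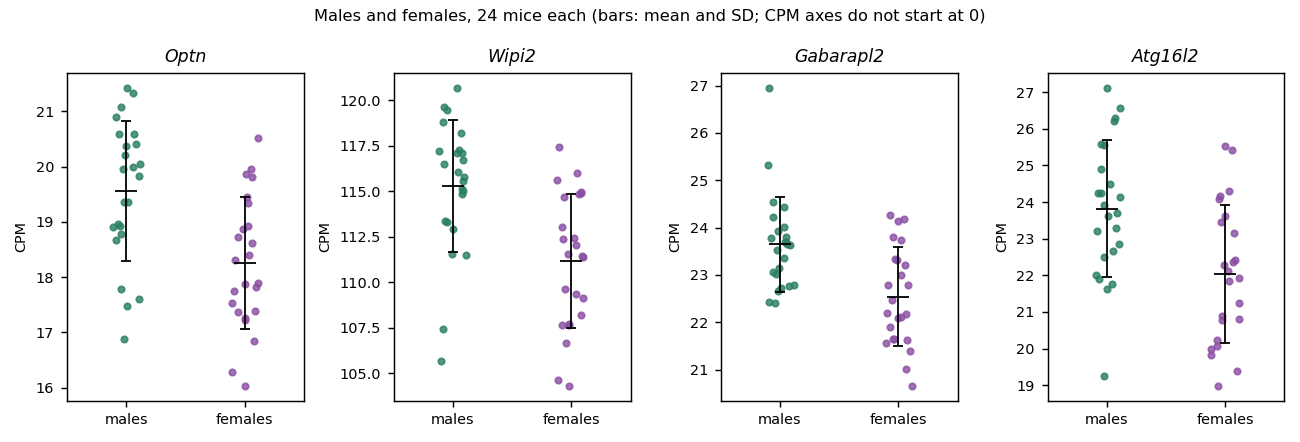
CPM of Optn, Wipi2, Gabarapl2 and Atg16l2 in 24 males and 24 females, 1 point per mouse, with mean and SD as bars; the axes do not start at 0. Male means lie above female means for all 4 genes (19.6 and 18.3 CPM for Optn, 115 and 111 for Wipi2, 23.7 and 22.5 for Gabarapl2, 23.8 and 22.0 for Atg16l2), with overlapping ranges.

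At an unadjusted p under 0.05, the males against females comparison held 5 of 19 further machinery genes (26.3%), 4 of 15 further receptors (26.7%), 3 of 27 nutrient signalling genes (11.1%) and 10 of 32 lysosomal genes (31.2%), beside 20.7% of all tested genes. Of the further machinery, 1 of 19 rose in males, Wdr45b, another PI3P reader (0.06 ± 0.01, adjusted p = 0.0152), and 1 of 19 fell, Vmp1, which works at contacts between endoplasmic reticulum and autophagosome (-0.07 ± 0.02, adjusted p = 0.0472), beside 2.73% higher and 2.83% lower among all tested genes. Among the lysosomal genes Tpp1, a peptidase, fell in males (-0.07 ± 0.01, adjusted p = 0.00299). None of the 27 nutrient signalling genes was called by edgeR.

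Some cell type markers moved with sex too, where 5.56% of all tested genes were called and 20.7% had an unadjusted p under 0.05. Of 7 cortical excitatory neuron markers 1 was called, Slc17a7, higher in males (0.08 ± 0.02, adjusted p = 0.0269), and of 5 striatal markers 1, Drd1, higher in males (0.23 ± 0.07, adjusted p = 0.0297). The striatal list did not move one way, since Adora2a had a log2 fold change of -0.23 ± 0.08 (adjusted p = 0.0771) and the list median was 0.00. Of 5 astrocyte markers 1 was called, Aldh1l1, lower in males (-0.11 ± 0.03, adjusted p = 0.00496), with all 5 at an unadjusted p under 0.05, 4 of them lower in males. The summed astrocyte markers had a median of 5171 CPM in males (4584 to 5604), against 5279 CPM in females (4733 to 5898). Those of oligodendrocytes had a median of 1615 CPM in males (1191 to 2215), against 1776 CPM in females (1364 to 2388), with 0 of 5 called. The summed excitatory neuron markers had a median of 2080 CPM in males (1927 to 2171), against 1997 CPM in females (1824 to 2165). Uncalled oligodendrocyte and interneuron markers at an unadjusted p under 0.05 went both ways. Mag (-0.17 ± 0.05, adjusted p = 0.0564), Mobp (-0.20 ± 0.07, adjusted p = 0.0805) and Pvalb (-0.13 ± 0.05, adjusted p = 0.0873) were lower in males. Gad2 was higher in males (0.05 ± 0.02, adjusted p = 0.151). No defining marker of these classes was at 0 in any mouse, and their part in the sex differences was not tested.

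Members were last compared with each other across the 48 mice, to ask which rose and fell together once genotype and sex were taken out of log2 CPM. Of 666 pairs, 54 were positively and 25 negatively correlated at an adjusted p under 0.05 (permutation test with 100000 resamples, two-sided, Benjamini-Hochberg over the 666 pairs), and 72 pairs passed when plate column was taken out as well. Over all pairs r ran from -0.672 to 0.682 with a median of 0.026. Correlations among other tested genes were not computed, so the share of passing pairs typical of tested genes is not known. The counts therefore cannot be read as specific to autophagy genes. Correlations were also not rerun without the high-Ttr mice or the males with high second-component values. The strongest positive pair was Gabarapl1 and Sqstm1, the 2 most abundant members, at r = 0.682 (rho = 0.694, p = 1e-05 for both, adjusted p = 0.000832 and 0.00111). It held without the 2 mice farthest from the median of Gabarapl1 (r = 0.638) and with plate column taken out (r = 0.713).

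The next pairs also joined different roles. Atg2b, a lipid channel, and Wdfy3, the aggregate scaffold, had r = 0.664 (rho = 0.642, permutation p = 1e-05 for both, adjusted p = 0.000832 and 0.00111), with r = 0.699 without the 2 most distant mice and 0.692 after plate column. Map1lc3b, an LC3 protein, and Sqstm1 had r = 0.623 (rho = 0.617, permutation p = 1e-05 for both, adjusted p = 0.000832 and 0.00111), with r = 0.599 and 0.600 in the same checks. The most negative pair was Atg101 and Atg4a at r = -0.672 (rho = -0.641, permutation p = 1e-05 for both, adjusted p = 0.000832 and 0.00111), with r = -0.578 and -0.645. A p of 1e-05 is the smallest that this number of resamples can give.

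Of 72 pairs within a role 7 passed, all positive, beside 47 positive and 25 negative pairs among 594 across roles. Within the ATG8 family 3 of 10 pairs passed, and within the initiation complex 2 of 10. Subunits of the lipid kinase complex gave 0 of 15 pairs. With plate column taken out as well, these 3 counts were 3, 1 and 1 in the order given. Ulk1 was in the most passing pairs (11), followed by Rb1cc1, Atg2a and Map1lc3a (9 each), while Atg14 and Atg12 were in 0. For the transcription factors and the 4 genes with CACGTG, a set chosen after the windows were read, r ran from -0.403 (Atg3 and Tfe3) to 0.319 (Atg7 and Tfe3). Of these 8 pairs 1 passed, Atg3 and Tfe3 (permutation p = 0.00475, adjusted p = 0.0432), whose rho of -0.332 did not pass (adjusted p = 0.132) and whose r was -0.258 without the 2 most distant mice.

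In base composition of the transcripts, the genes of passing negative pairs lay further apart than those of all pairs. Passing positive pairs were close to all pairs. GC content of the longest coding transcript ran from 39.1% (Rb1cc1) to 63.2% (Tfeb), with a median of 51.7%. The 2 genes of a positive pair differed by a median of 5.1 percentage points (0 to 12.3), those of a negative pair by 12.3 (0.1 to 20.9), and those of all 666 pairs by 5.5. In the plot of correlations ordered by GC content several of the most negative values lie where genes of low GC content meet those of high, such as Atg2a with Rb1cc1 (-0.668), Atg4c (-0.642) and Atg5 (-0.501). The part of base composition in the correlations was not tested.

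**Figure D5:**
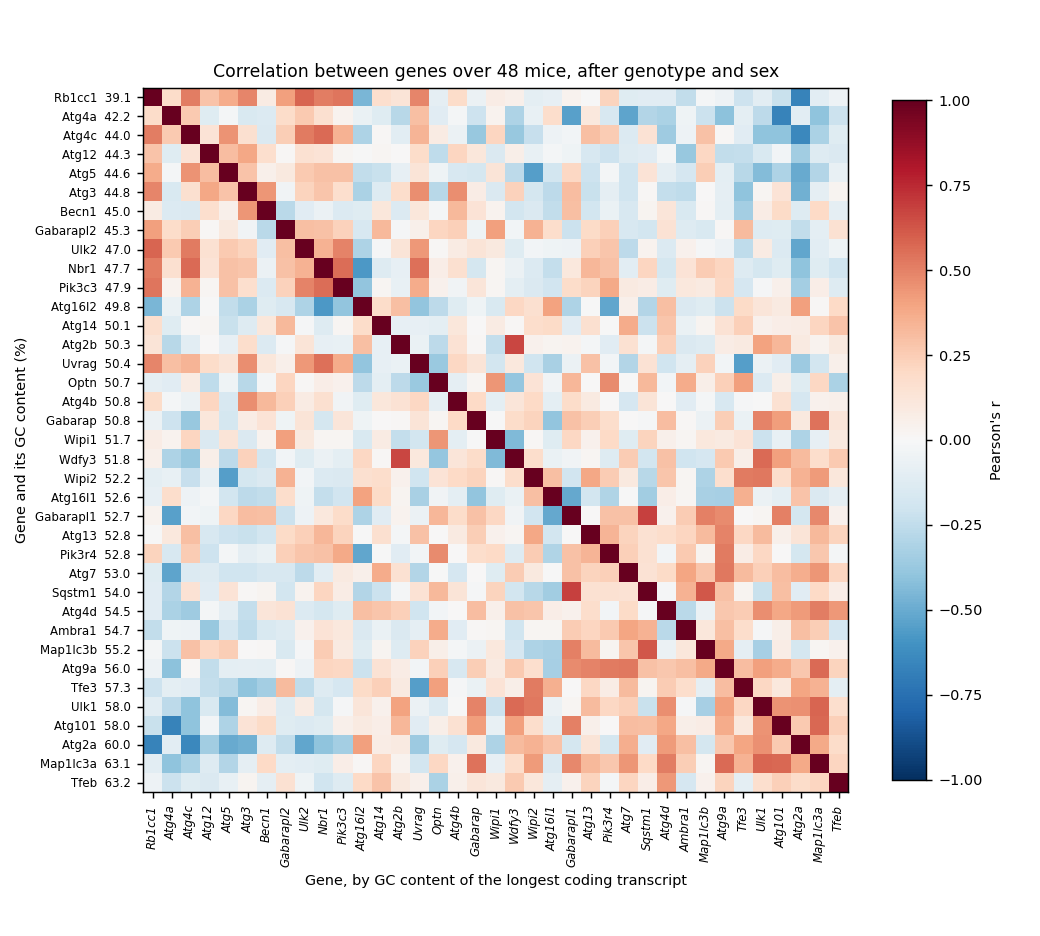
Pearson's r between all 37 members over 48 mice after genotype and sex, with genes ordered by the GC content printed beside each name; red is positive and blue negative. The deepest red off the diagonal is Gabarapl1 with Sqstm1 (0.682) and the deepest blue Atg101 with Atg4a (-0.672).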

How the data were processed

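The authors deposited a table of whole-number read counts and a table of FPKM, by Ensembl gene and with 1 column per mouse; 0 columns were of other samples. Per the labels' protocols, total RNA (Qiagen RNeasy) went into stranded Illumina TruSeq libraries. HTSeq 0.12.3, STAR 2.7.5c, SAMtools 1.10 and the build GRCm38 (mm10) appear in the submitters' processing notes, while the annotation release and the strand setting are not given in the sources used here. The deposited FPKM proved to be the deposited counts scaled by 1 factor per gene and 1 per library, so both hold the same measurement. Chi-square over degrees of freedom between libraries of a group was 3.86 to 27.9, above counting noise in every pair, so all 48 were used as separate mice.

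Counts were fitted in R 4.3.3 with edgeR 4.0.16 (TMM factors, filterByExpr, quasi-likelihood F-test, genotype and sex, all 48 mice), with Benjamini-Hochberg adjustment over the 20010 genes kept, which held 99.96% of the counts. CPM uses TMM-scaled library sizes and a prior count of 1 on the log2 scale. SE, the standard error given after ± for log2 fold changes, is the absolute log2 fold change over the square root of F. Alternatives used DESeq2 1.42.0, limma 3.58.1, other filters, scalings, covariates and left-out mice. The edgeR fit and the permutation test of correlations were each run on simulated data, while DESeq2 and limma were not. The members, lists and rules were chosen with earlier results of these data known. Named are the called members of a comparison or, with fewer than 3 called, the 3 with the smallest p, the called genes of the other lists, Atg10 and Wdr41, the 3 highest and the 1 lowest correlation. C9orf72 and Retreg1 carry older names in the tables. Some genes that this rule names are not reported here. Nothing in the labels says that mice of different groups share a litter or a day, and p-values treat the 48 mice as independent.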

Additional observations from a re-analysis of the deposited data

Results flagged for a closer look

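Of 222 sets of values (37 members in 6 genotype groups), 9 held 1 mouse whose distance from the rest of its group passed Dixon's test, where chance gives about 1 in 20. The same mouse gave 2 of these, a Msh3-/- male (number 4) with the lowest Atg3 (38.3 CPM, next mouse 40.9) and the lowest Wdfy3 (315 CPM, next mouse 352) of its group. The highest values of a group were those of Ulk2 in Msh3+/- male 1 (144 CPM, next 136), Atg9a in Q140 x Msh3+/- female 1 (98.0 CPM, next 89.9), Atg4a in Msh3+/- female 4 (7.16 CPM, next 5.58), Tfeb in Q140 male 2 (5.90 CPM, next 5.03) and Tfe3 in WT male 3 (50.9 CPM, next 47.1). WT male 3 was also 1 of the 3 libraries with high Ttr. The lowest values of a group were those of Atg9a in Q140 female 4 (80.4 CPM, next 85.9) and Atg16l1 in Msh3+/- female 5 (66.9 CPM, next 70.3). With each of these mice left out in turn, the count of called members was again 0 in all 11 genotype comparisons.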

How the results depend on the processing

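The genotype result, 0 called members, was the same in all 172 combinations of the 11 genotype comparisons with other settings (scaling, filters, covariates, tool, one sex alone, only the groups compared, libraries left out) and in all fits that left out 1 of 48 mice, a choice added after the data were seen. The 4 calls between males and females depended more on the settings. Their number moved to 1 with no low-count filter and to 1 without the 3 libraries with high Ttr (Optn both times), and to 2 with plate column as a factor (Gabarapl2 and Optn). Optn was called in all 12 settings (adjusted p 0.00657 to 0.0322), Gabarapl2 in 10 (0.00878 to 0.0611), Wipi2 in 9 (0.00416 to 0.0876) and Atg16l2 in 6 (0.0319 to 0.122). Leaving out single mice gave 3 or 4 calls: Optn, Wipi2 and Gabarapl2 passed all 48 times, while Atg16l2 passed 15 times and missed the threshold 33 times (log2 change 0.10 to 0.12, adjusted p 0.0207 to 0.0836). The log2 change of Optn in Q140 carriers against non-carriers turned its sign in males alone, at -0.000636 (adjusted p = 1), against 0.09 in females alone. Other genotype values, none of them called, moved by over 1.5 times with the sex analysed. Among them, Atg101 in Q140 x Msh3+/- against Q140 had -0.25 in males alone and -0.00 in females alone. The Gabarap difference with Msh3+/- had -0.16 and -0.00, and Atg4c in Q140 x Msh3-/- against Msh3-/- 0.04 and 0.20 (0.06 with plate column). Over the other settings Atg12 ran from -0.07 to -0.02 in Q140 carriers against non-carriers. In Q140 x Msh3-/- against Q140 it ran from 0.06 to 0.13. Gabarap ran from -0.08 to -0.01 in Q140 x Msh3+/- against Msh3+/-. The cause was not tested for any of these.

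Replicate numbers in the labels do not pair the mice: deviations of same-sex mice with the same number in different groups had a mean r of -0.031 (-0.244 to 0.109, 115 pairs). Mice of different groups that share a column-name stem, whose meaning the labels do not give, had a mean r of 0.0434 (-0.0191 to 0.109, 23 pairs). Those of different groups with other stems had a mean r of -0.000982 (-0.244 to 0.366, 936 pairs). With a replicate block, 3 members were called between males and females (Optn, Wipi2 and Gabarapl2) and 0 in every genotype comparison. With the stem as a random block in limma, the same 3 were called between the sexes and 0 in every genotype comparison. In every comparison between 2 genotype groups the 95% intervals of 36 or 37 members lay within 1.2-fold and of 28 to 31 within 1.1-fold.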
